A study of Mus musculus with 5 samples.

Results

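The genes described here are 32 interferon-stimulated antiviral genes, which cells switch on when interferon reports an infection. Their intervals were found by a positional rule: an interval of a peak list belonged to a gene when the nearest transcription start site (TSS) of any protein-coding gene to the interval centre, within 50 kb, was that of the gene (GENCODE M1 annotation, build mm9). By this rule 26 of the 5590 intervals in the 5 lists belonged to antiviral genes, and 15 of the 32 genes held at least 1. The rule used position alone and no measured height.

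Type I interferon acts through a receptor and the kinases JAK1 and TYK2, which activate STAT2. It acts with IRF9 in a complex that binds the interferon-stimulated response element (ISRE), a repeat of GAAA half-sites in the promoters of antiviral genes. Interferon regulatory factors such as IRF8 and IRF4 read the same half-site, on an ISRE or, next to an ETS protein such as PU.1 or SPIB, on the composite ETS-IRF element (EICE).

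Binding was mapped by chromatin immunoprecipitation and sequencing (ChIP-seq) in B cells of wild type C57BL/6 mice, with 1 library in each of 5 groups. In 4 groups naive splenic B cells were cultured with 10 µg/ml of lipopolysaccharide (LPS), a bacterial stimulus, and IRF4 (antibody M-17) or IRF8 (antibody C-19) was mapped after 48 h or 72 h. In the other group, IRF8 (antibody C-19) was mapped in germinal centre (GC) B cells sorted on day 13 after immunisation with the hapten-protein conjugate NP-KLH. The labels give no age or sex of the mice and do not say whether animals were pooled, and peak lists hold no expression values by which the cell types could be checked.

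The IRF4 lists held 1573 intervals at 48 h and 898 at 72 h, the LPS lists of IRF8 held 234 and 1059, and the GC list held 1826. The LPS libraries held between 3065426 tags (IRF8 at 72 h) and 4375858 tags (IRF8 at 48 h). The share of tags in peaks was 0.18% for IRF8 at 48 h and 0.52% at 72 h. For IRF4 it was 0.82% at 48 h and 0.45% at 72 h. How deeply the GC library was sequenced is unknown, because its list gives positions alone. That list was also made with another peak caller, from cells frozen after sorting, so cell type and processing cannot be told apart in any comparison with it. For IRF8 at 72 h, the file header names a tag set called rep2, and which library that was is not settled. Each group has 1 library, so differences between groups could not be checked on replicates.

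The sequences that carry the finding are the elements under the antiviral gene intervals. Below are the elements within 100 bp of the centre for the 9 places with a motif in an LPS list, highest peak first, and for the 3 GC genes outside the LPS lists with an ISRE core there. All are from the NCBIM37 (mm9) genome and run 5′ to 3′ on the strand of the gene. Capitals mark the ISRE core (GAAA, any 2 bases, GAAA) and the EICE (GGAA, any 2 bases, GAAA), each searched on both strands, so that TTTC in capitals is a core on the opposite strand. Where the core lay in an annotated untranslated region, the stretch was kept to 30 bases.
Nmi (chr2:51828524-51828553, minus strand): tctaataaccGAAAGTGAAAgtaaggcctg
Mov10 (chr3:104621023-104621052, minus strand): cggcgacTTTCAGTTTCATTTCCgcggacc
Oas1b (chr5:121262582-121262643, plus strand): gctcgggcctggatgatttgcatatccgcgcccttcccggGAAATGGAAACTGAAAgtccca
Socs1 promoter (chr16:10785657-10785752, minus strand): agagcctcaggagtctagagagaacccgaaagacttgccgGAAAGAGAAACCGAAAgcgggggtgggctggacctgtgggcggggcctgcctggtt
Ddx60 (chr8:64406791-64406883, plus strand): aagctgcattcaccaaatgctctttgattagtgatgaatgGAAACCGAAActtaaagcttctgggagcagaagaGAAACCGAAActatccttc
Trim25 (chr11:88860703-88860732, plus strand): tcctgttcagTTTCGATTCCttcctcgctg
Parp9 (chr16:35939051-35939080, plus strand): ggcaaagTTTCAGTTTCGATTCCccagaag
Isg20 (chr7:86057411-86057500, plus strand): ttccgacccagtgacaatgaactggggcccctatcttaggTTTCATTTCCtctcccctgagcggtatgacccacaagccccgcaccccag
Socs1 distal (chr16:10741323-10741485, minus strand): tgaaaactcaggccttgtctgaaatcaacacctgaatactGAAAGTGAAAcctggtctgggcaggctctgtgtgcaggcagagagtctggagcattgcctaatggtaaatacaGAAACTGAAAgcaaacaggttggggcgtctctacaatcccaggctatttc
Ifih1 (chr2:62484261-62484290, minus strand): gaagagaatcGAAACAGAAAccgatctgtg
Isg15 (chr4:155574944-155575045, minus strand): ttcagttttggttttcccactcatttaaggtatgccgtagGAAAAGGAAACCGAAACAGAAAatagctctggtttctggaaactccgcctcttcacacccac
Parp12 (chr6:39068222-39068251, minus strand): agcccgcTTTCGGTTTCGTTTCCttccagc

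How many of the antiviral genes each list held was asked first. IRF8 in GC B cells held 13 of the 32 genes (40.6%), against 5.96% of all 22380 protein-coding genes. IRF8 after 72 h of LPS held 8 (25%), against 3.35%. IRF4 at 72 h held 2 genes, Nmi and Parp9, against 3% of all genes. IRF4 at 48 h held none, against 4.79%, and IRF8 at 48 h held none, against 0.786%. At the share of all genes, 32 genes would hold 1.91 in the GC list, 1.07 and 0.252 for IRF8 at 72 h and 48 h, and 0.961 and 1.53 for IRF4 at 72 h and 48 h, so the counts of 0 and 2 were near the background and those of 8 and 13 above it. Across all lists, 15 antiviral genes (46.9%) held an interval, against 11.7% of all genes. These shares are counts over 1 list each and were not tested.

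**Figure D1:**
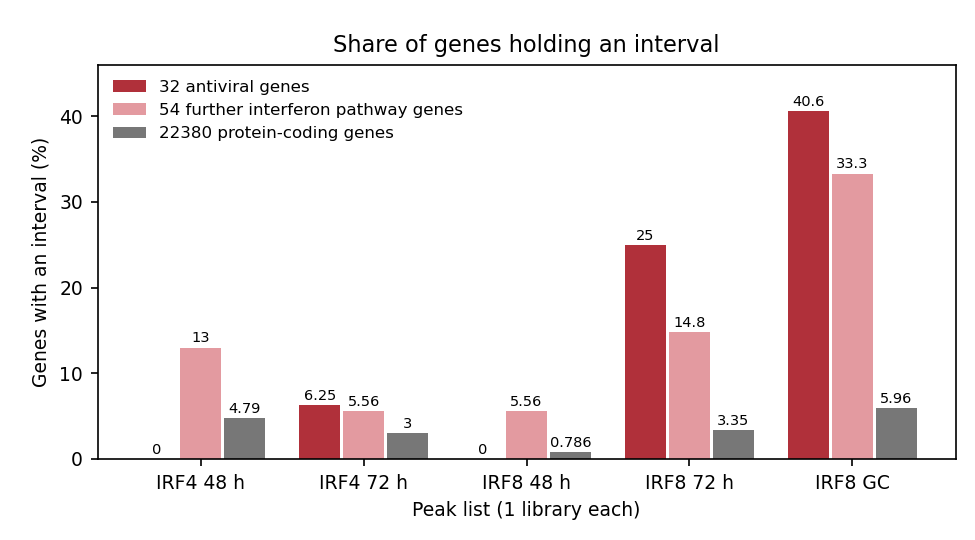
Percent of genes with an assigned interval (vertical axis) in each of the 5 peak lists (horizontal axis), for the 32 antiviral genes, 54 further interferon pathway genes and all 22380 protein-coding genes; bars are single lists and have no error. The antiviral genes stand at 25% in the IRF8 72 h list and 40.6% in the GC list, and at 0 in both 48 h lists.

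A gene outside a list is not thereby unbound. The lowest peak carried 23.6 normalised tags (tags per 10000000, the authors' scaling) in the IRF4 48 h list, 18.6 in IRF4 72 h, 20.6 in IRF8 48 h and 22.8 in IRF8 72 h, and binding below these levels could not be seen. The antiviral gene peaks of IRF8 at 72 h stood from 26.1 to 55.5 tags, with a median of 32.6, which was also the median of all 1059 peaks of that list. They were thus of ordinary height. When each LPS list was cut to its 234 highest peaks, the length of the shortest list, IRF8 at 72 h held 1 antiviral gene (3.12%, against 0.8% of all genes) and the other LPS lists held none. The contrast between 48 h and 72 h for IRF8 therefore rests on peaks of middle and low height. The IRF8 48 h library also had the lowest share of tags in peaks, 0.18% against 0.52% for IRF8 at 72 h.

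The antiviral gene intervals lay at promoters. A promoter interval, here one with its centre within 1000 bp of the TSS, made up 13 of 14 antiviral gene intervals in the GC list, against 26.4% of all GC intervals. It made up 8 of 10 in the IRF8 72 h list, against 9.83%, and 2 of 2 in the IRF4 72 h list, against 14.9%. Counted by gene, a promoter interval was held by 13 antiviral genes in the GC list, against 2.10% of all genes, and by 8 in the IRF8 72 h list, against 0.460%. Of these 26 antiviral gene intervals, 20 had their centre within 200 bp of the TSS. The share of all intervals within 200 bp was not counted, so this count has no background beside it. The 26 intervals fell on 18 separate places, 16 promoter and 2 distal, and none of them lay in multi-copy sequence (a median copy number above 1 of the 24-base words around the centre).

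**Figure D2:**
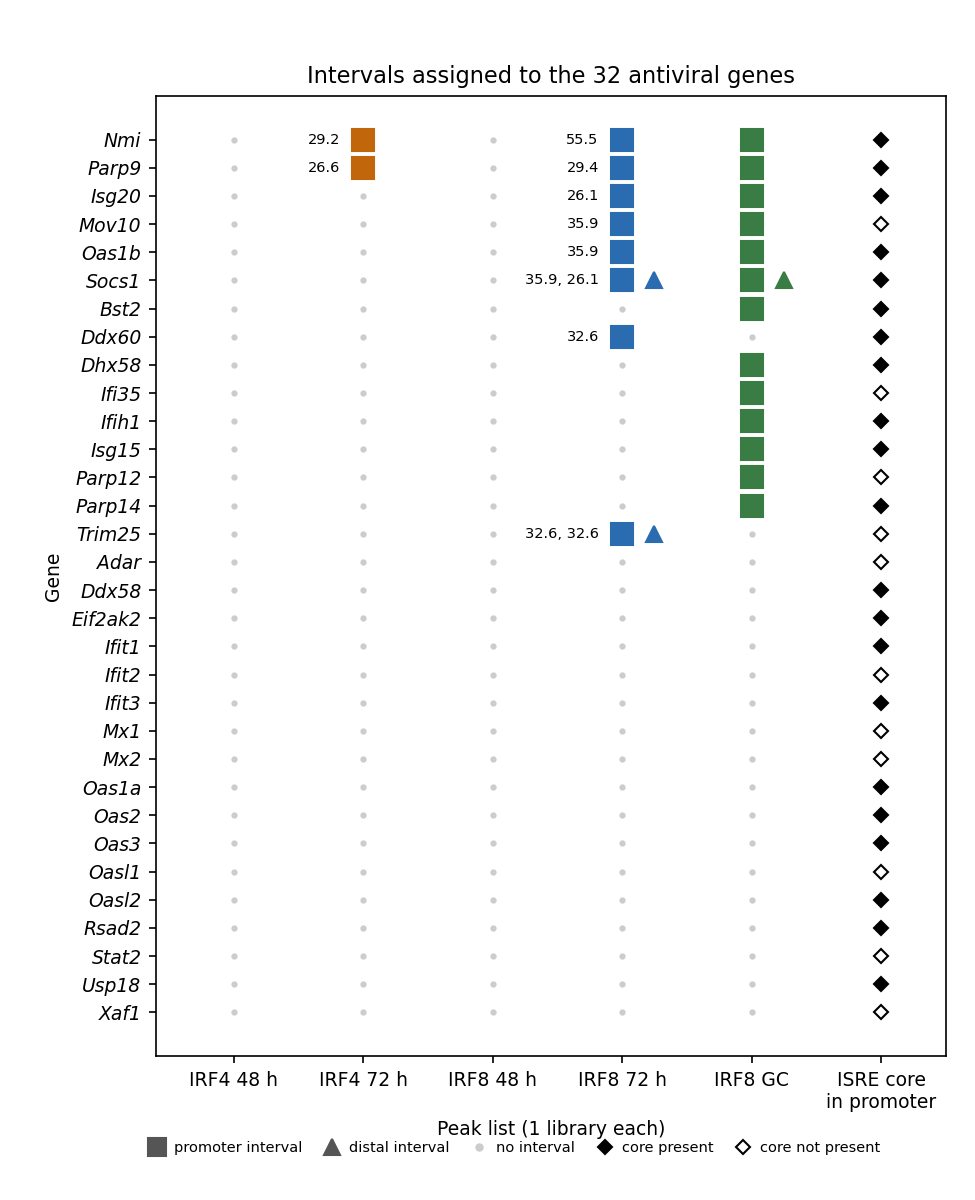
The 32 antiviral genes (rows) in the 5 peak lists (columns): squares are promoter intervals, triangles distal intervals, grey dots no interval, and the numbers are normalised tag counts of the LPS peaks, promoter before distal. The last column marks genes with an ISRE core from 250 bp upstream to 50 bp downstream of a TSS; 15 genes hold an interval, and the 2 columns of the 48 h lists are empty.

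Among the sensors of viral RNA and their cofactors, 4 of 5 genes held an interval in any list, against 11.7% of all genes. Ifih1 encodes MDA5, which recognises long double-stranded RNA, and Dhx58 encodes LGP2, which modulates MDA5. Both were in the GC list alone: the Ifih1 interval (chromosome 2, 62483691 to 62485050) was centred 59 bp upstream of the TSS, and that of Dhx58 (chromosome 11, 100563704 to 100565863) 123 bp upstream. The Ifih1 core lay 37 bp downstream of the TSS, and the Dhx58 core 923 bp upstream, 800 bp from the centre of its interval. Both Dhx58 distances to the TSS are from a TSS inside the gene. The Dhx58 core itself lay at the annotated 5′ end of the gene (100565585), and the interval centre in an intron.

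Ddx60, a helicase of the same pathway, and Trim25, the ubiquitin ligase that acts on RIG-I, were in the IRF8 72 h list alone. The Ddx60 peak (chromosome 8, 64406601 to 64407101) was centred 33 bp upstream of the TSS and carried 32.6 normalised tags (10 tags, 95% Poisson interval 15.6 to 60). It held 2 separate ISRE cores, shown above. The nearest GC interval to a Ddx60 TSS was 477 kb away. Trim25 had a promoter peak centred 6 bp upstream and a distal peak 24.5 kb downstream in intergenic sequence, each with 32.6 tags. The Trim25 promoter peak held an EICE and no ISRE core, and the distal peak held none of the searched motifs. Ddx58, which encodes RIG-I, held no interval in any list although its promoter has an ISRE core, and the nearest interval to its TSS was 542 kb away, in the IRF4 48 h list.

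Of the 5 genes for signalling and feedback, 3 held an interval in any list, against 11.7% of all genes. Nmi encodes a partner of STAT proteins and was 1 of 2 genes found in 3 lists. It carried 29.2 normalised tags for IRF4 at 72 h (11 tags, 95% Poisson interval 14.6 to 52.3) and 55.5 for IRF8 at 72 h (17 tags, 32.3 to 88.8). The centres of these peaks lay 10 bp apart, at a TSS inside the gene, whose annotated 5′ end is at 51829014. The ISRE core was 3 bp from the IRF8 centre. The Nmi peak of IRF8 ranked 98 among 1059, and no other antiviral gene peak of that list stood higher.

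Socs1 encodes an inhibitor of the JAK kinases. Its promoter was in the IRF8 72 h list with 35.9 tags (11 tags, 17.9 to 64.2), centred 84 bp upstream of the TSS, and in the GC list with an interval of 2988 bp, the widest of the antiviral genes. A distal place 44.2 kb downstream of the Socs1 TSS, in an intron of Clec16a, was also in both IRF8 lists, with 26.1 tags at 72 h (8 tags, 11.3 to 51.4). It held a pair of ISRE cores, shown above. This was the farthest interval that the 50 kb limit took in, and no interval nearest to an antiviral gene lay beyond the limit. Ifi35, whose product binds that of Nmi, was in the GC list alone, 100 bp downstream of its TSS, and its interval was the one of the 14 GC intervals with no ISRE core anywhere. Stat2, a subunit of the interferon-activated factor, and Usp18, which removes ISG15 and damps receptor signalling, held no interval.

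Of the 19 antiviral effectors, 5 held an interval in any list and 14 did not. The role groups hold 3 to 19 genes and were not tested against each other, and 11.7% of all genes held an interval in any list. Isg15 encodes a ubiquitin-like modifier, and Bst2 encodes tetherin, which holds budding virus at the cell surface. Both were in the GC list alone. The Isg15 interval (chromosome 4, 155574197 to 155575688) was centred 16 bp upstream of the TSS, with 3 overlapping ISRE cores at 61 to 73 bp upstream. The Bst2 interval (chromosome 8, 74060973 to 74062508) was centred 405 bp upstream, with cores at 154 and 160 bp upstream.

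Mov10, an RNA helicase that restricts retroelements, and Oas1b, a member of the oligoadenylate synthetase family, were in both the IRF8 72 h and GC lists. Each carried 35.9 tags at 72 h (11 tags, 17.9 to 64.2). The centres of the IRF8 72 h and GC intervals lay 30 bp apart at Mov10 and 145 bp apart at Oas1b. Isg20 encodes an exonuclease that degrades RNA. It was in the same pair of lists, but at different places: its IRF8 72 h peak, 26.1 tags (8 tags, 11.3 to 51.4), was centred 822 bp upstream with an EICE, and its GC interval 36 bp upstream with an ISRE core. These intervals (chromosome 7, 86057238 to 86057738 and 86058174 to 86059488) did not overlap. The distances are from different TSSs of Isg20: that of the 72 h peak is the gene start (86058310), and that of the GC interval lies farther downstream.

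The other effectors held none: Ifit1, Ifit2 and Ifit3, which bind viral RNA or act beside proteins that do, Oas1a, Oas2, Oas3, Oasl1 and Oasl2, the GTPases Mx1 and Mx2, Rsad2 (viperin), Adar, Eif2ak2 (the kinase PKR) and Xaf1. At 2 antiviral genes, a peak within 1000 bp of the TSS was assigned to a neighbouring gene whose TSS was nearer. An IRF8 72 h peak of 35.9 tags (11 tags, 17.9 to 64.2) with an ISRE core lay 100 bp from the Ifit1 TSS but 28 bp from that of 2010002M12Rik, to which it was assigned. An IRF4 72 h peak of 23.9 tags (9 tags, 10.9 to 45.4) lay 133 bp from the Oas1b TSS but 12 bp from that of Oas1c. Counted with these promoters, IRF8 at 72 h held 9 antiviral genes and IRF4 at 72 h held 3. All genes were not counted in this way, so these counts have no background beside them.

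All 3 ADP-ribosyltransferase genes were in the GC list, against 5.96% of all genes. Parp9, whose product forms a complex with DTX3L, was also in the lists of IRF4 at 72 h, with 26.6 tags (10 tags, 12.7 to 48.8), and IRF8 at 72 h, with 29.4 tags (9 tags, 13.4 to 55.7). The Parp9 peaks lay at a promoter shared with Dtx3l, which the rule assigned to Parp9, and the genes cannot be told apart there. Parp12 and Parp14, in the GC list alone, had intervals centred 77 bp and 326 bp downstream of their TSS. In Mov10, Parp9, Parp12 and Parp14 an EICE and an ISRE core overlapped by a shared GAAA.

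**Figure D3:**
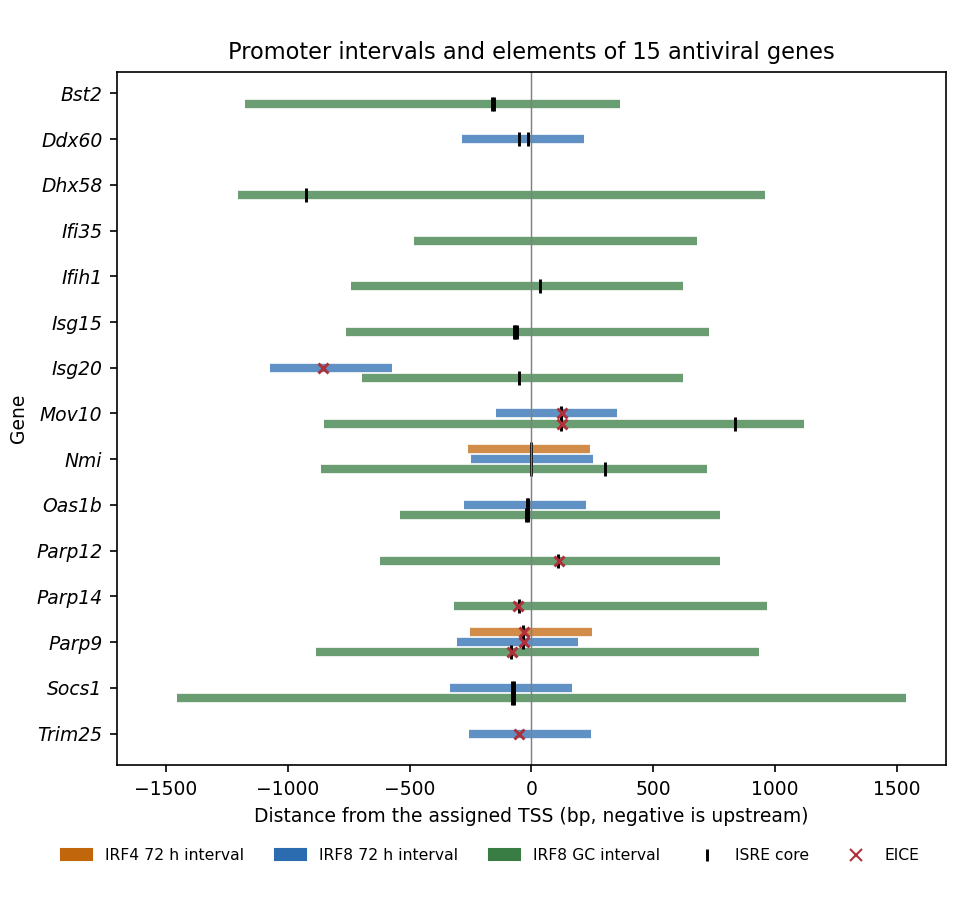
Promoter intervals of the 15 antiviral genes with one, drawn by distance from the assigned TSS in bp (horizontal axis), with bars for interval width, ticks for ISRE cores and crosses for EICEs inside each interval. Of the 8 IRF8 72 h promoter peaks, 6 hold an ISRE core and those of Trim25 and Isg20 hold an EICE alone. The GC intervals are wider, and Ddx60 and Trim25 have no GC interval. The Isg20 bars overlap as drawn, each from its own nearest TSS, but the Isg20 intervals do not overlap in the genome. Distances at Isg20, Parp9 and Oas1b shift between lists, most at Isg20, because the nearest TSS among several of the gene differs.

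The motif counts were set beside all promoter intervals of the same list, since most antiviral gene intervals were at promoters. Within 100 bp of the centre, 6 of 8 antiviral promoter peaks of IRF8 at 72 h held an ISRE core, against 33.0% of all 103 promoter peaks, and 4 of 8 held an EICE, against 24.3%. AP-1 sites (TGACTCA or TGAGTCA, bound by JUN and FOS family proteins) lay under 0 of 8, against 8.74%. In the GC list 6 of 13 antiviral promoter intervals held an ISRE core within 100 bp of the centre, against 9.75% of 482. Over the whole interval 12 of 13 did, against 35.5%. The nearest core was 3 to 22 bp from the centre in the 7 IRF8 72 h peaks with an ISRE core, the distal Socs1 peak included. GC intervals give no summit, and their antiviral gene widths ran from 1162 to 2988 bp, with a median of 1442.5 bp against 1144.5 bp for the whole list, so a motif can lie far from the centre.

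Whether an ISRE core in the promoter set the bound genes apart was then examined over all 32 genes, in the stretch from 250 bp upstream to 50 bp downstream of each TSS. A core was present in 21 of 32 antiviral genes (65.6%), against 7.94% of 22376 protein-coding genes with complete sequence. It was present in 11 of the 15 genes with an interval and in 10 of the 17 without one, among them Ifit1, Ifit3, Oas1a, Oas2, Oas3, Oasl2, Rsad2, Usp18, Ddx58 and Eif2ak2. The core was thus common in both sets. Of the 21 antiviral genes with a core, 10 held a GC promoter interval, against 5.24% of all 1776 genes with a core. In the IRF8 72 h list 6 did, against 1.75%. Of the 11 antiviral genes without a core in that stretch, 3 held a GC promoter interval and 2 an IRF8 72 h promoter peak, against 1.83% and 0.350% of the 20600 genes without one. Mov10 and Parp12 are among these 11, with cores 120 bp and 109 bp downstream of the TSS, which for Mov10 is one inside the gene.

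The lists of IRF8 in GC B cells and after LPS were then set against each other. They shared 6 of the 32 genes (18.8%), Isg20, Mov10, Nmi, Oas1b, Parp9 and Socs1, against 1.14% of all genes, and 6 places overlapped, 2 of them at Socs1 and none at Isg20. The shared genes were 46.2% of the 13 in the GC list and 75% of the 8 in the IRF8 72 h list. For all genes the GC and 72 h lists shared 248, which was 18.6% and 33.1%. Of these lists, the GC list alone held 7 genes (21.9%), Bst2, Dhx58, Ifi35, Ifih1, Isg15, Parp12 and Parp14, against 4.82% of all genes. LPS IRF8 alone held 2 (6.25%), Ddx60 and Trim25, against 2.49%, where 0.798 genes would be held at the share of all genes. No test between these lists is possible, since caller and cell type differ together.

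At 72 h, IRF4 and IRF8 were compared at the antiviral places present in both lists. By gene, 6 of the 32 antiviral genes (18.8%; Ddx60, Isg20, Mov10, Oas1b, Socs1 and Trim25) were in the IRF8 72 h list and in no IRF4 list, against 1.93% of all genes. Within the IRF8 72 h list these were 6 of 8 antiviral genes, against 432 of all 750 genes of the list, so absence from the IRF4 lists was common in both. Oas1b counts among the 6 only because the overlapping IRF4 72 h peak was assigned to Oas1c. At the shared antiviral places no difference in tags beyond counting error was found, and the intervals were wide. The ratio of IRF8 over IRF4 was 1.90 at Nmi (95% interval 0.839 to 4.48, log2 0.92), 1.5 at Oas1b (0.566 to 4.10, with the IRF4 peak assigned to Oas1c) and 1.11 at Parp9 (0.398 to 3.03). IRF8 was the higher at all 3, and none passed an exact binomial test, two-sided, adjusted over the 258 shared places (adjusted p = 0.886 at Nmi and 1 at the others). Of those 258 places, 0.388% passed. The test compares 2 libraries, not conditions, and at 9 to 17 tags a peak it can miss sizeable differences. In simulated data of this comparison, with 50 places changed, it found 18% of those changed 2-fold and 100% of those changed 4-fold. The simulation drew on all 258 shared places at their own tag levels. Its shares therefore do not give what would be found at the antiviral places. The other pairs of LPS libraries shared no antiviral place.

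**Figure D4:**
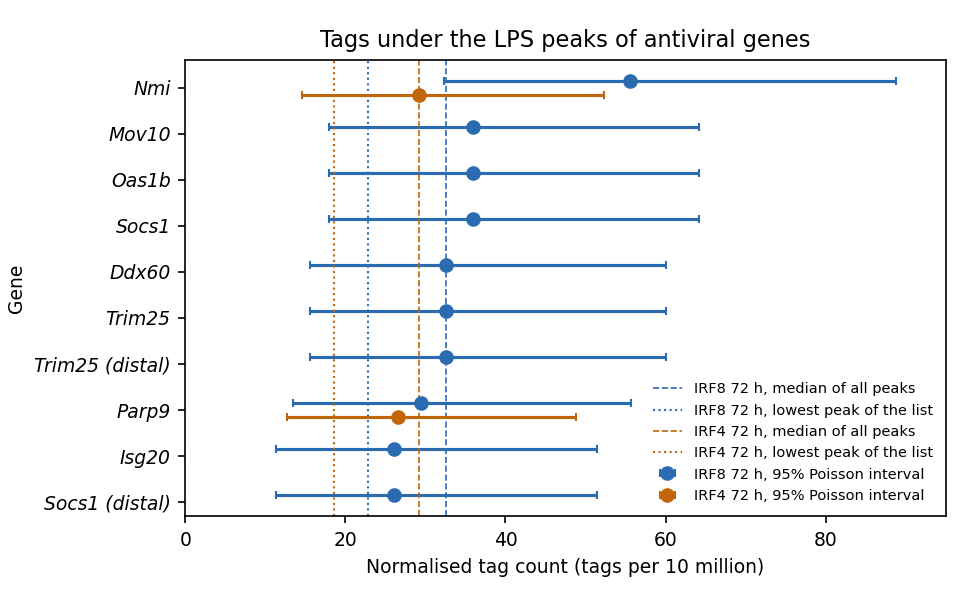
Normalised tag counts (tags per 10000000, horizontal axis) of the antiviral gene peaks of IRF8 and IRF4 at 72 h, with 95% Poisson intervals for counting error, and lines for the median and the lowest peak of each list. All intervals but that of Nmi for IRF8 reach below the lowest peak of their own list, and the IRF4 and IRF8 intervals overlap at Nmi and Parp9.

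Further genes of the interferon pathway came from a separate list of 55, of which 54 matched the annotation. The GC list held 18 of 54 (33.3%, against 5.96% of all genes), IRF8 at 72 h held 8 (14.8%, against 3.35%) and IRF4 at 48 h held 7 (13%, against 4.79%). IRF4 at 72 h and IRF8 at 48 h held 3 each (5.56%, against 3% and 0.786%). The 7 receptors and kinases held 3 in the IRF4 48 h list (Ifnar1, Jak2 and Tyk2) and 4 in the GC list, and the 32 effectors held 2 (Gbp2 and Trim34a) and 10. Of the 8 sensors and adaptors, 1 was in the GC list (Zbp1) and 1 in the IRF4 72 h list. These groups are small and were not tested against each other.

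The genes named next were each held by 2 or more lists. Ifnar2, an interferon receptor subunit, carried the highest tags, 25.1 for IRF8 at 48 h and 81.6 at 72 h at a place 25117 bp upstream, and was in the GC list at another place. Psmb8, an immunoproteasome subunit, had an IRF8 72 h promoter peak of 52.2 tags, and a GC interval. Trim30a carried 38.8 and 42.4 IRF8 tags at 48 h and 72 h, 7541 bp and 7503 bp downstream of its TSS, and was in the GC list at 7476 bp. Irf5, a related transcription factor, was in all 4 LPS lists, from 25.1 tags (IRF8 48 h) to 38.3 (IRF4 48 h), and not in the GC list. Jak2 (32.4 tags) and Gbp2 (29.4) were in the IRF4 48 h and GC lists. Rnf213 (29.4) and Irf2 (26.1) were in the IRF8 72 h and GC lists, and Trim34a was in both IRF4 lists (29.4 and 26.6).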

How the data were processed

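ChIP-seq peak lists of 5 libraries were used. For LPS cells the authors ran HOMER findPeaks, per the file headers, with peaks of 500 bp, at most 1 tag a position, a discovery rate threshold (FDR) of 0.001 and a fold of at least 4 over the local 10000 bp. The deposited signal is each peak's tags, which the authors normalised to 10000000 per library. The deposited score (tags after the limit per position), focus ratio (a fraction), folds (ratio to the local region or to clonal positions) and p-value of each peak were not used. The GC list was deposited as positions, called with MACS per the series design text. Bowtie2, BWA and mm9 are named in the submitters' processing notes, without roles. Tags were recovered from the normalised count, whole within 0.05 for 100% of peaks.

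Intervals were assigned to GENCODE M1 protein-coding TSS on NCBIM37 (mm9), all transcripts. The nearest TSS can therefore lie inside the gene, as at Nmi, Mov10, Parp9, Parp14 and Ifi35, among others. Unplaced peaks (0 to 12 a list) could not be assigned. Motifs were searched with Python 3.11.15 and pysam 0.24.0, and intervals and tests came from scipy 1.17.1. Overlap meant at least 1 bp. The tag test was tested on simulated data. Intervals cover counting error only, since tags that carry no molecular identifier need not be separate molecules. Every antiviral gene was named, and of further pathway genes those in 2 or more lists, of which 1 is not reported here. Sequences followed peak height, then GC intervals, which have no height. The genes, lists and tests were chosen with earlier results of these data known.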

Additional observations from a re-analysis of the deposited data

How the results depend on the processing

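Of 93 recalculations of 26 results, 82 stayed within 1.5 times the count (or, for tag ratios, on their side of the threshold) and 11 moved. The counts of 13 antiviral genes in the GC list and 8 in the IRF8 72 h list stayed at 13 and 8 with limits of 10 kb and 100 kb and with single-copy intervals. When any protein-coding TSS within 50 kb counted, the IRF4 48 h list held 3 antiviral genes (9.38%), near the 9.90% of all genes. IRF4 72 h held 5 (15.6%, against 6.60%) and IRF8 48 h held 2 (6.25%, against 1.74%). The IRF8 72 h and GC lists held 11 and 16 (34.4% and 50%, against 7.52% and 13.7%). The zeros at 48 h were thus not kept under this looser rule. The IRF4 72 h count was 1 with one TSS per gene, 0 at or above the pooled median of 32.6 tags and 0 at equal list length, where the IRF8 72 h count was 1. Over whole GC intervals 13 of 14 held an ISRE core, against 37.4% of all GC intervals. An EICE lay in 4 and an AP-1 site in 4, near the 23% and 23.8% of all GC intervals. Within 100 bp of the centre the counts were 7, 2 and 1, against 13.4%, 7.34% and 5.75%. With the expected ratio from the median of the shared single-copy places, 0 shared places of IRF4 and IRF8 at 72 h passed, against 1. A stricter threshold could not be run for the GC list, which has no score. No paired analysis was possible because each group has 1 library. Depth limits single peaks: 8 to 17 tags lay under each antiviral gene peak.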

Other observations

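Some antiviral gene intervals held 3 half-sites in a row, an arrangement that was read off the matches after they were seen and was not tested. An EICE running into an ISRE core (GGAA, GAAA and GAAA, each 2 bases apart, either strand) lay in the GC intervals of Mov10, Parp12, Parp14 and Parp9, 4 of 14, against 3.23% of all GC intervals. It lay in the IRF8 72 h peaks of Mov10 and Parp9, 2 of 10, against 1.24%. From 250 bp upstream to 50 bp downstream of a TSS, 2 of the 32 antiviral genes (Parp14 and Parp9) had it, against 47 of 22376 genes (0.210%). The doubled ISRE core (GAAA 3 times, each 2 bases apart) lay in the GC intervals of Bst2, Isg15, Oas1b and Socs1, 4 of 14, against 10.6% of all GC intervals. The IRF8 72 h peaks of Oas1b and Socs1 held it too, 2 of 10, against 2.77%. In the stretch around the TSS 5 of 32 had it (Bst2, Isg15, Oas1a, Oas1b and Socs1), against 0.371% of all genes, and Oas1a held no interval in any list. No antiviral gene interval of the GC list held both arrangements.

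The promoters of antiviral genes with and without an interval also differed in CpG content, given here as values with no test. The median ratio of observed to expected CpG was 0.478 in the 15 genes with an interval and 0.256 in the 17 without, against 0.478 in all genes. It was 0.564 in all genes of the GC list and 0.61 in all genes with a GC promoter interval. In all genes with an IRF8 72 h promoter peak it was 0.467. The median GC content was 52.0% in the 15 antiviral genes with an interval and 53.2% in the 17 without, against 54.7% in all genes.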
